A study of Mus musculus with 8 samples.

Results

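The genes of the major histocompatibility complex (MHC) class II pathway were examined in single cells of mouse periosteum. The 10 genes were taken by symbol from the 32285 genes listed in the count matrices, not by a measured value. They are the chain genes H2-Aa, H2-Ab1 and H2-Eb1, the invariant chain gene Cd74, the transactivator gene Ciita, the peptide exchange genes H2-DMa, H2-DMb1 and H2-DMb2, and the genes H2-Oa and H2-Ob of the inhibitor of that exchange. Periosteal cells had been digested from the left femurs and tibias of male C57BL/6J mice, 16 weeks old, fed normal diet chow (ND) or high fat diet chow (HFD), a model of type 2 diabetes, and measured by droplet-based scRNA-Seq. The labels name 4 samples per diet and no transgene or other agent. The deposited counts form 1 matrix per diet, however, in which no barcode is tied to a mouse. Each diet was therefore 1 pooled library, and no test between diets was possible. All intervals (95%) cover counting error only and not the spread between mice or, for levels and ratios, between cells.

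Class II molecules are pairs of an alpha and a beta chain that carry peptides from endocytosed proteins to the cell surface, where CD4+ T cells read them. The chains are assembled on the invariant chain, whose remnant in the groove is exchanged for peptide by H2-M, a step that H2-O restrains. Dendritic cells and mature B cells are known to express the pathway constitutively, whereas monocytes and macrophages vary with tissue and state. Mice of the C57BL/6 background make no I-E alpha chain, so that H2-Eb1 RNA has no I-E molecule to match it, and the alpha chain gene H2-Ea was not analysed here.

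Of the 10 genes, 8 lie in the class II region of the mouse genome (GRCm38, GENCODE M21 annotation) at chr17:34092340-34316674. Ciita lies at chr16:10480059-10528418 and Cd74 outside this region as well. Genes listed on the opposite strand overlap Ciita (Dexi), H2-Oa (BC051537), H2-DMa (among them Brd2) and H2-Eb1 (Gm20513), and a gene on the same strand (CR974462.3) overlaps H2-DMa, whose reads in that stretch are uncertain. The promoters of class II genes are known for a Y box and an upstream X box, the sites of factors that recruit CIITA. To show how alike these letters are in genes whose levels differ widely below, 65 bases upstream of chain genes of both orientations and of an inhibitor gene are given 5′ to 3′ on the coding strand (RefSeq, GRCm38.p6), with the Y box letters TGATTGG and the X box letters GNAAC in capitals. The windows are chr17:34287857-34287921 (minus strand) for H2-Aa, chr17:34305758-34305822 (plus strand) for H2-Eb1 and chr17:34238798-34238862 (plus strand) for H2-Ob.
H2-Aa: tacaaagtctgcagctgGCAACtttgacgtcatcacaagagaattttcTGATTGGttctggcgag
H2-Eb1: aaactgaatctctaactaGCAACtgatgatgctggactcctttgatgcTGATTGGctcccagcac
H2-Ob: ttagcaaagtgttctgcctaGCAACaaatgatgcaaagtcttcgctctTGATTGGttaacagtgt

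The boxes stood 26 bases apart in H2-Aa, 25 in H2-Eb1 and 23 in H2-Ob, and the Y box began 50, 61 and 59 bases before the gene start. H2-Oa and H2-DMb1 held both boxes as well, each 26 bases apart, H2-DMb2 held only the Y box and H2-DMa neither, within 250 bases before the start. Thus 6 of the 7 genes with a promoter in the RefSeq table held the Y box letters on either strand and 5 held both boxes, against 8.38% and 0.389% of 27025 genes. The letters of the X box and the spacing of 10 to 40 bases were chosen after these sequences had been seen. A match describes letters and is not evidence of a bound factor. H2-Ab1, Ciita and Cd74 had no entry in the table.

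The libraries held 6029 (ND) and 6224 (HFD) cells after filtering, with medians of 4610 and 4823.5 unique molecular identifiers (UMIs) per cell, and 14 barcodes occurred among the kept cells of both. Cells were sorted into 12 classes by marker genes, none of them a class II gene, and clustering was run without the class II genes. Each named cluster showed at least 5 of its own markers, each named subcluster at least 3, and a name with the ending -like marks a class rebuilt from the counts. Mesenchymal-like cells, with 6 of 6 markers, were 6.80% and 10.7% of the cells, neutrophil-like cells 39.9% and 39.1%, and B cell-like cells 25.05% and 23.63%. B cell-like cells and phagocytes were clustered again to separate conventional dendritic cells type 2 (cDC2), plasmacytoid dendritic cells (pDC), resident macrophages, classical and nonclassical monocytes, and B cell stages. A subcluster of cycling phagocytes (89 ND and 90 HFD cells) was given no cell type name.

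Class II RNA was concentrated in few cell groups (the plot of summed levels by cell group). Levels are given as UMIs per 1000000 UMIs of the group (UPM), first in ND and then in HFD. A UMI stands for 1 captured 3′ end, so that gene length does not enter the level. Over all cells the 10 genes summed to 4372 and 4384. The cDC2-like cells, with 6 of 7 markers at 2-fold or more over the median phagocyte and dendritic subcluster (Cd209a, Clec10a, Mgl2, Flt3, Itgax and Zbtb46) and with the macrophage genes C1qa and C1qb also among their 10 leading genes, reached 63692 (62905 to 64486) and 63793 (63250 to 64339), the highest level of any group. They made up 0.514% and 0.819% of the cells and held 11.9% and 24.4% of all class II UMIs.

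B cell-like cells held the largest share of class II UMIs, 66.7% and 58.9%. B cells with high Ighd, the IgD heavy chain of mature B cells, stood at 42890 and 41656, and B cells with low Ighd at 21604 and 22320. The subclusters of both groups had been named mature B cell by their markers. Earlier B stages were far lower, with 2183 and 2461 in Rag1-high precursors, which rearrange their receptor genes, and 744 and 898 in cycling precursors. Among B stages the order was the same in both libraries and no neighbouring intervals overlapped.

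The other named phagocyte and dendritic cell groups lay between the mature and the precursor B cells. pDC-like cells had 9466 and 8564, classical monocyte-like cells 5246 and 2745, nonclassical monocyte-like cells 3288 and 5424, and resident macrophage-like cells 3257 and 6047. In ND the intervals of nonclassical monocytes and resident macrophages overlapped, and in HFD none of these 4 groups overlapped with another. The order of the pooled monocyte and macrophage levels thus differed between the libraries, though the intervals leave out the spread between cells.

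**Figure D1:**
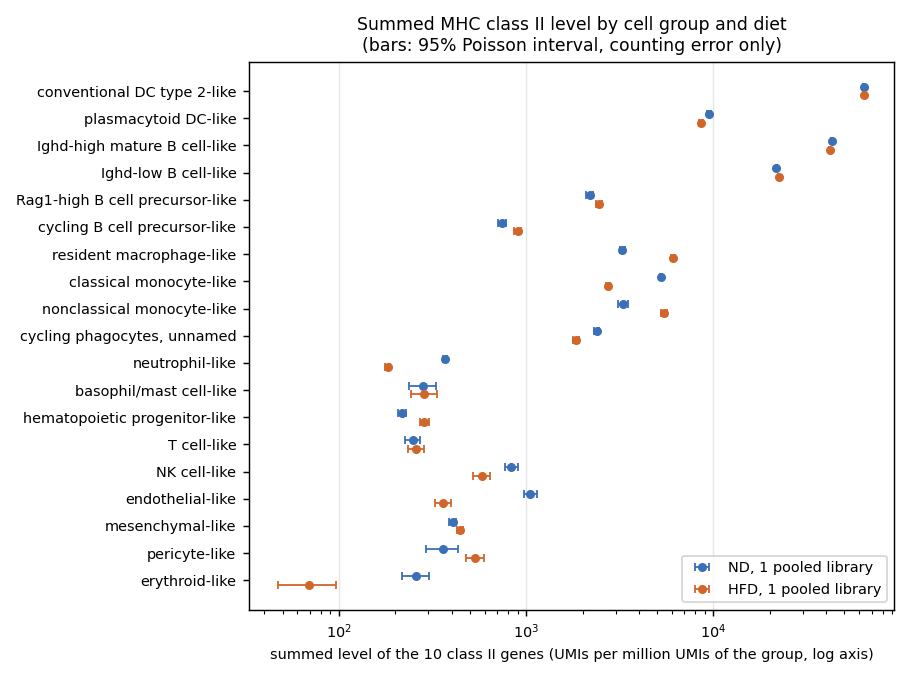
Summed level of the 10 class II genes in each cell group (y axis) as UPM (UMIs per 1000000 UMIs of the group, x axis, log scale), with points for the ND and HFD libraries and bars for the 95% Poisson interval. cDC2-like cells (63692 and 63793) and Ighd-high B cells (42890 and 41656) lie at the right in both diets, and classical monocyte-like and resident macrophage-like cells change places.

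Groups other than B cells, dendritic cells, monocytes and macrophages had low but measurable levels. In ND, neutrophil-like, pericyte-like, basophil/mast cell-like, erythroid-like, T cell-like and progenitor-like cells ran from 368 down to 218, each interval overlapping the next. Erythroid-like cells were the lowest in HFD, with 33 UMIs and a level of 69.0 (47.5 to 96.9). All 7 B cell markers were found in neutrophil-like cells too, at a summed level of 83.4 and 75.4, and the part of free RNA or doublets in these class II levels was not tested.

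Shares of cells with a UMI also separated these groups after depth was equalised. H2-Aa, the I-A alpha chain, was seen in 99.5% and 99.4% of Ighd-high B cells (median depth 3866 and 3636 UMIs) and in 6.48% and 7.27% of neutrophil-like cells (median 4133 and 4303.5). With every cell thinned to 1000 UMIs, the shares were 98.2% and 98.6% in Ighd-high B cells against 2.08% and 2.10% in neutrophil-like cells. In cDC2-like cells they were 80.6% and 88.2%.

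Among the chains, H2-Aa, H2-Ab1 and H2-Eb1 shared the order of groups at the top. H2-Aa was at 9899 (9590 to 10215) and 10034 (9819 to 10252) in cDC2-like cells. It was at 6834 (6706 to 6965) and 6428 (6301 to 6557) in Ighd-high B cells. The next groups, Ighd-low B cells (1544 and 1583) and pDC-like cells (1483 and 1295), overlapped in ND and not in HFD. H2-Ab1, the I-A beta chain, was at 7359 and 7341 in cDC2-like and at 3626 and 3583 in Ighd-high B cells. H2-Eb1 was at 7193 and 7416, and at 3956 and 3738.

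The step from Ighd-low to Ighd-high B cells was larger for the chains than for the invariant chain. Cd74 (chr18:60803848-60812652) was at 17039 (16896 to 17184) and 17668 (17509 to 17828) in Ighd-low and at 26646 (26392 to 26903) and 26100 (25844 to 26359) in Ighd-high B cells. Hence 11.0 and 11.2 Cd74 UMIs were counted per H2-Aa UMI in Ighd-low B cells, and 3.90 and 4.06 in Ighd-high B cells. The latter ratio was close to that of cDC2-like cells, 3.77 and 3.68. At least 1 Cd74 UMI was present in 99.0% and 99.3% of Ighd-low B cells, while H2-Aa was seen in 73.0% and 67.0%.

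Precursor B cells differed again in how the chains were balanced. In cycling precursors, H2-Ab1 was above H2-Aa, with 198 and 206 against 103 and 143, or 1.92 and 1.44 H2-Ab1 UMIs per H2-Aa UMI. In Ighd-high B cells this ratio was 0.531 and 0.557. In Rag1-high precursors both chains were near 1 level, 247 and 251 for H2-Aa and 235 and 259 for H2-Ab1, with overlapping intervals.

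Ciita, the coactivator that switches on class II promoters, was counted only 263 and 212 times. Ighd-high B cells had the highest level, 61.7 (50.01 to 75.2) and 59.5 (47.9 to 73.1), and B cell-like cells as a whole held 76.0% and 76.4% of its UMIs. Ciita was lower in cDC2-like cells, 22.9 (10.5 to 43.5) and 24.1 (14.8 to 37.3), although these cells exceeded Ighd-high B cells in every chain gene. Neutrophil-like cells had 3 and 1 Ciita UMIs in all. Basophil-like, endothelial-like, pericyte-like and erythroid-like cells had none in either library, counts that allow levels of up to 2.70 to 10.2.

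**Figure D2:**
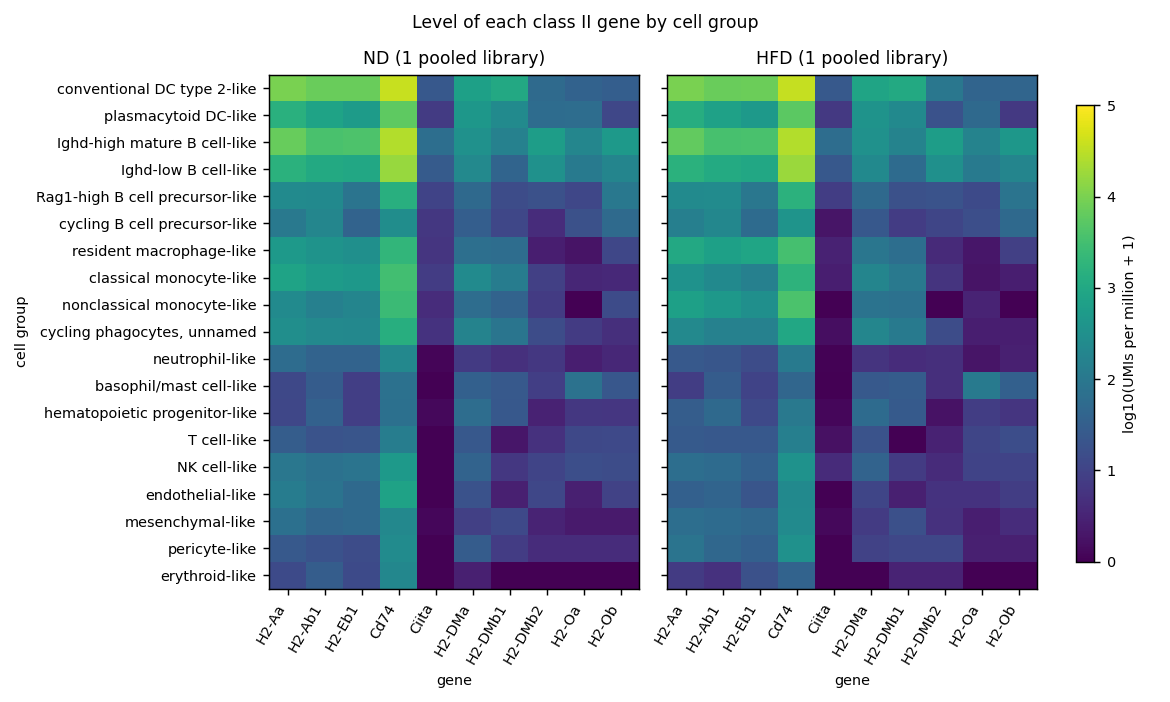
Level of each of the 10 class II genes (x axis) in each cell group (y axis), as log10(UPM + 1) by colour, in the ND library (left) and the HFD library (right). The 4 genes at the left of each panel are highest in cDC2-like and B cells, H2-DMb2 and H2-Ob stand out in Ighd-high B cells, and H2-Oa stands out in basophil/mast cell-like cells (75.5 and 112).

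The genes of H2-M, the peptide exchange factor, divided the antigen-presenting cells by their beta chain. cDC2-like cells had mainly H2-DMb1, at 1033 (935 to 1139) and 1070 (1000 to 1143), with H2-DMb2 at 53.5 (33.1 to 81.7) and 96.6 (76.6 to 120.2). Ighd-high B cells had the reverse, with H2-DMb2 at 604 (566 to 644) and 610 (572 to 651) and H2-DMb1 at 158 (139 to 179) and 169 (149 to 191). Thus 19.3 and 11.1 H2-DMb1 UMIs were counted per H2-DMb2 UMI in cDC2-like cells, and 0.262 and 0.277 in Ighd-high B cells. Classical monocytes stood with the cDC2, at 16.0 and 22.6. B cell-like cells held 87.5% and 86.9% of all H2-DMb2 UMIs, but 22.1% and 18.5% of those of H2-DMb1.

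H2-DMb1 and H2-DMb2 are near-identical copies over much of their length, so their counts could in principle mix. Their transcripts were 94.6% identical over 1219 aligned bases, and 15.9% of possible 90-base reads of H2-DMb1 also matched H2-DMb2. Over the last 300 bases, where 3′ reads fall, identity was 75.8% and 0 of 211 possible reads were shared.

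H2-DMa, the alpha chain of H2-M, was spread more widely. It was at 700 (620 to 788) and 822 (762 to 886) in cDC2-like, at 437 and 374 in pDC-like, at 331 and 344 in Ighd-high B and at 249 and 188 in classical monocyte-like cells. B cell-like cells held only 36.2% and 34.3% of its UMIs. Hematopoietic progenitor-like cells held 11.5% and 7.61%, at a level of 60.02 (54.5 to 66.0) and 55.0 (48.7 to 61.8). These cells were deep (median 30783 and 26721 UMIs), and after thinning H2-DMa was seen in 6.72% and 5.73% of them, against 0.583% and 0.288% of neutrophil-like cells. Their H2-DMa UMIs outnumbered H2-Aa UMIs 5.78-fold and 1.90-fold, whereas B cell-like cells had 0.0830 and 0.0861 H2-DMa UMIs per H2-Aa UMI. The B cell markers were at 79.6 and 59.9 in the progenitors.

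H2-O, which restrains H2-M, was most abundant in B cells. H2-Ob, its beta chain, was at 481 (447 to 516) and 449 (416 to 484) in Ighd-high B cells and at 30.5 (15.8 to 53.4) and 41.1 (28.4 to 57.4) in cDC2-like cells. Rag1-high precursors had 98.0 (78.3 to 121.2) and 84.4 (68.4 to 102.9), with intervals that overlapped those of H2-Eb1 in the same cells (84.2 and 96.6), although H2-Eb1 far exceeded H2-Ob in Ighd-high B cells. H2-Oa, the alpha chain, was at 193 and 175 in Ighd-high and at 110 and 114 in Ighd-low B cells.

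H2-Oa was also found in basophil/mast cell-like cells, which carried 6 of 6 basophil markers. These 47 and 53 cells had 41 and 62 H2-Oa UMIs, a level of 75.5 (54.2 to 102.5) and 112 (86.0 to 143.8), and their intervals overlapped that of Ighd-low B cells but not that of Ighd-high B cells in both libraries. H2-Oa was seen in 40.4% and 54.7% of them, and in 6.38% and 5.66% after thinning, against 0.166% and 0.124% of thinned neutrophil-like cells. Of the other class II genes there, Cd74 was at 71.9 and 43.4, H2-Aa at 11.1 and 7.24, H2-Ob at 22.1 and 32.6 and Ciita at 0. Per H2-DMa UMI they had 2.28 and 4.77 H2-Oa UMIs, B cell-like cells 0.518 and 0.492. The B cell markers were at 147 and 39.8 in the basophils, and Pax5 and Ms4a1 were at 0 in HFD.

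**Figure D3:**
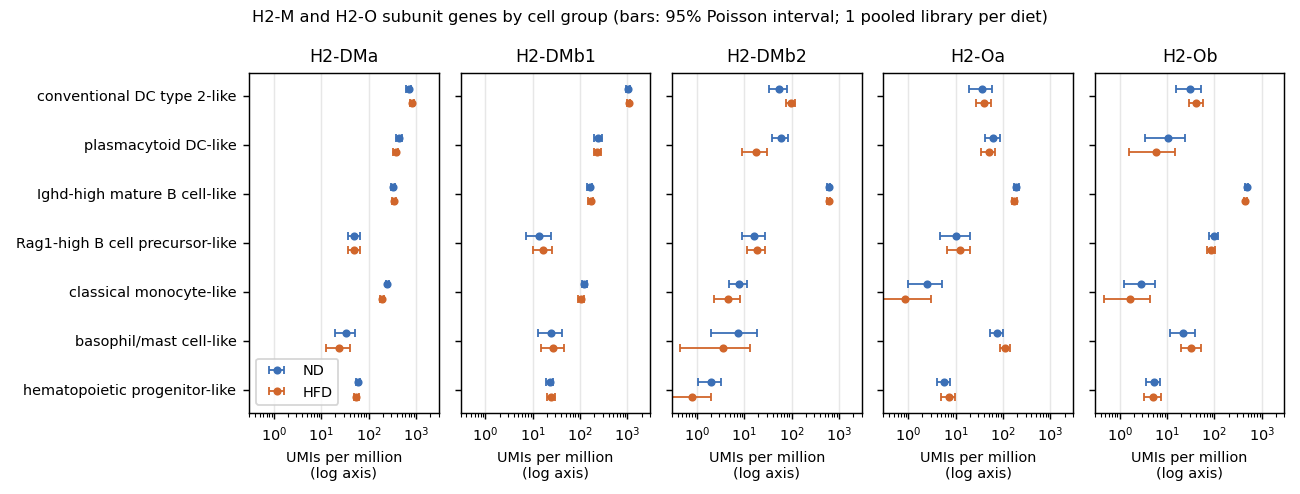
Levels of the H2-M genes (H2-DMa, H2-DMb1, H2-DMb2) and the H2-O genes (H2-Oa, H2-Ob) as UPM (UMIs per 1000000 UMIs of the group, x axis, log scale) in 7 cell groups (y axis), with 95% Poisson intervals. H2-DMb1 is highest in cDC2-like cells (1033 and 1070), H2-DMb2 in Ighd-high B cells (604 and 610), and basophil/mast cell-like cells show H2-Oa (75.5 and 112) beside lower levels of the other genes.

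Within a group, class II RNA was spread evenly in Ighd-high B cells and very unevenly in macrophages and monocytes. The median Ighd-high B cell had 44261 and 47788 UPM of class II, and the 10% of cells with the most class II held 16.6% and 15.5% of the group's class II UMIs. The median cDC2-like cell had 64638 and 61882, and its top 10% of cells held 27.5% and 29.6%.

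The median resident macrophage-like cell, in contrast, had only 205 and 182 UPM, while 90.1% and 91.1% of the group's class II UMIs lay in 9 and 10 cells. The 90th percentile was 6240 and 11250. In classical monocyte-like cells the median was 512 and 444, the 90th percentile 13196 and 6308, and the top 10% of cells held 85.6% and 79.8%. Nonclassical monocyte-like cells were less uneven, with medians of 937 and 1360 and 64.5% and 67.1% in the top 10%.

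**Figure D4:**
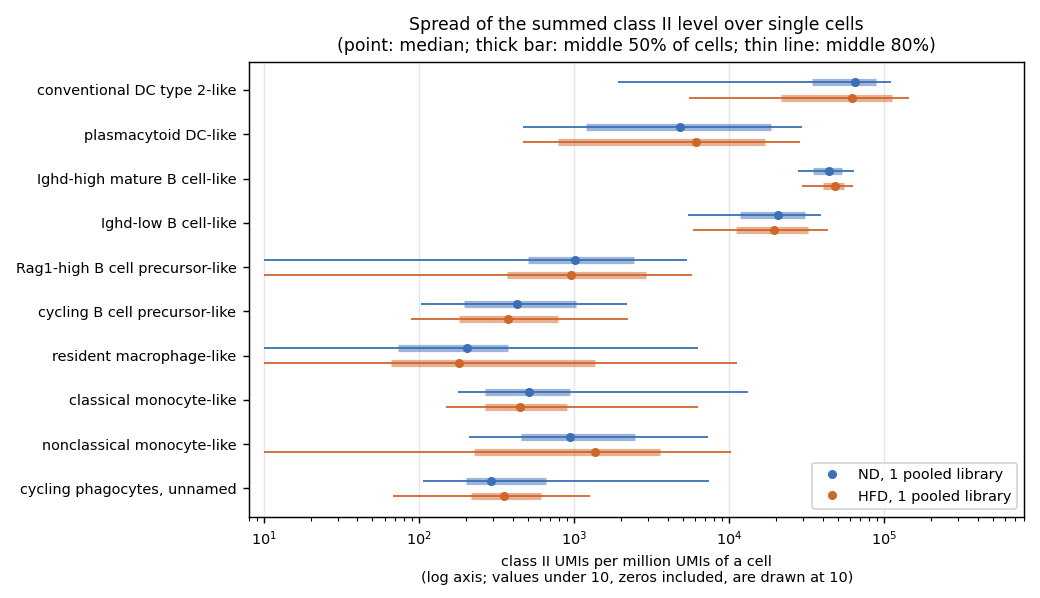
Summed class II UMIs per 1000000 UMIs of each single cell (x axis, log scale, values under 10 drawn at 10) by cell group (y axis), with the median as a point, the middle 50% of cells as a thick bar and the middle 80% as a thin line. Ighd-high B cells span a narrow range around 44261 and 47788, whereas resident macrophages have medians of 205 and 182 and upper ends of 6240 and 11250.

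Markers of cDC2 moved with the class II level inside the resident macrophage-like and classical monocyte-like groups. In the 9 and 10 resident macrophage-like cells with the most class II, the 7 cDC2 markers summed to 410 and 1210 UPM, against 60.7 and 105 in the other cells. In classical monocyte-like cells the same contrast was 344 against 28.5 in ND and 120 against 37.6 in HFD. The B cell markers were at 25.1 and 9.10 in the top resident macrophages, with 6 of 7 at 0 in both libraries. In the top classical monocytes the B cell markers were at 25.3 with 3 of 7 found and 73.9 with 6 of 7 found. The part of either cell type in the class II level of these cells was not tested.

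The patterns of other genes over the cell groups were compared with that of the summed class II level, over 36 points (18 named groups in each diet) that share libraries and depth. Ordered by Pearson's r of log2(UPM + 10), the genes outside the list with the most similar pattern were Cd180 (0.904), Fgd2 (0.870), Ly86 (0.862), Ifi30 (0.842), Cd83 (0.842), Gdi2 (0.836), Irf5 (0.812), Slc15a4 (0.809), Pkib (0.808) and Ctss (0.794). Of the class II genes themselves, which are part of the sum, Cd74 had 0.990 and H2-DMa 0.906, and H2-Ob (0.610) and H2-Oa (0.569) were the least alike.

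The diets were then compared within each cell group, to ask whether class II RNA per cell type differed between the libraries. Genes with 20 or more UMIs in a group, ND and HFD together, were counted. They were past the limit at a ratio of 1.5-fold or more, with 0.5 added to each count. The shares of all genes were not matched to the class II genes by count, and ratios of genes with few UMIs vary more by counting error. Over all kept cells 0 of 10 class II genes were past the limit in either direction, where 15.5% of all genes were. The summed log2 ratio was 0.00 (-0.00 to 0.01), and the cell groups behind this sum differed in direction.

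The cell groups with the highest levels had nearly equal levels in the libraries. In Ighd-high B cells 0 of 10 genes were past the limit (16.1% of all genes were), and their log2 ratios of HFD over ND lay between -0.14 (H2-Oa) and 0.10 (H2-DMb1). In Ighd-low B cells it was 0 of 10 as well (11.9% of all genes), and the ratio furthest from 0 was that of H2-DMb1, 0.47 (0.12 to 0.82). For the B cell-like class as a whole the summed level was 18368 and 16729, a log2 ratio of -0.13 (-0.15 to -0.12), and 0 of 10 genes were past the limit (10.1% of all genes). With 1 common set of B subcluster weights for ND and HFD, the log2 ratio was -0.034. In the macrophage/monocyte-like class 1 of 10 genes was past the limit (10.9% of all genes), Ciita with 34 and 16 UMIs, and the levels of the summed genes were 4252 and 4336.

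In cDC2-like cells the summed ratio was 0.00 (-0.02 to 0.02). Of 10 genes 1 was past the limit, H2-DMb2, from 53.5 to 96.6 with a log2 ratio of 0.83 (0.15 to 1.62), where 23.5% of all genes were past it. B cell markers were at 15.3 in ND, with Ms4a1 and Ebf1 among those at 0, and at 151 in HFD, with all 7 found, in the same cells, and their part in the H2-DMb2 ratio was not tested. In pDC-like cells H2-DMb2 was lower in HFD, with 28 and 12 UMIs and levels of 58.8 and 17.5, a log2 ratio of -1.71 (-2.86 to -0.72), and was the only one of 8 counted genes past the limit (21.2% of all genes). There B cell markers were at 153 and 89.2, and their part in this ratio was not tested. The pDC-like cells joined a larger subcluster (31 and 50 cells), with summed class II levels of 5890 and 6899, and a smaller one. The smaller (12 and 9 cells) had 20908 and 18795. The pooled pDC-like level, lower in HFD, thus joins subclusters that differed in direction. The dendritic cell-like class as a whole had 31246 and 38863, a log2 ratio of 0.31 (0.28 with the same subcluster weights in both libraries), with 0 of 10 genes past the limit (19.2% of all genes). The 31 and 51 cDC2-like and 43 and 59 pDC-like cells came from subclustering phagocytes and dendritic cells together, and do not divide the 70 and 99 cells of that class.

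Resident macrophage-like cells (89 and 91 cells, 7 of 7 markers including C1qa, Mrc1 and Lyve1) had higher pooled levels of the chain genes in HFD. As given above, most of their class II UMIs lay in few cells, and the median cell was not higher in HFD. At least 1 class II UMI was present in 79.8% and 78.0% of the cells. H2-Aa went from 484 (445 to 525) to 1025 (963 to 1090), a log2 ratio of 1.08 (0.94 to 1.23). H2-Ab1 went from 374 to 692, and Cd74 from 1947 to 3290. H2-Eb1, from 307 to 873, had the largest ratio, 1.51 (1.33 to 1.69). These 4 of 7 counted genes were past the limit upward and none was past it downward (10.3% of all genes were past it upward). The median log2 ratio of the 7 was 0.76 against 0.04 over all genes. H2-Ob was lower in HFD but within the limit, with 13 and 8 UMIs and a log2 ratio of -0.40. Ciita, with 6 and 2 UMIs, had too few to count.

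The H2-M genes of the same macrophages differed less. H2-DMa was at 64.6 and 88.8, with a log2 ratio of 0.46 (0.00 to 0.92), and H2-DMb1 at 61.3 and 63.9, with 0.06 (-0.45 to 0.56). The summed ratio was 0.89 (0.83 to 0.95), and without the 5 cells of each diet with the most class II it was 0.76. Others of the few cells that held most class II UMIs remained after this step. Without the cells with the highest doublet scores the summed ratio was 1.73. The cDC2 markers were at 95.3 in ND, with 7 of 7 found, and at 227 in HFD, with Ffar2 at 0, the B cell markers at 81.2 and 16.97, and neutrophil markers at 13325 and 1513. Their part in the result was not tested.

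Classical monocyte-like cells (255 and 211 cells) had lower pooled levels in HFD. As given above, most of their class II UMIs lay in few cells, and the median cells differed less than the pooled levels. H2-Aa went from 808 (775 to 842) to 352 (329 to 377), a log2 ratio of -1.20 (-1.31 to -1.08). H2-Ab1 went from 566 to 236, H2-Eb1 from 464 to 149 and Cd74 from 3015 to 1705. Ciita had 19 and 4 UMIs, a log2 ratio of -1.86 (-4.00 to -0.40), and H2-DMb2 22 and 11, with -0.71 (-1.93 to 0.36). These 6 of 8 counted genes were past the limit downward (8.59% of all genes were), with a median log2 ratio of -1.01 against 0.05 over all genes. H2-DMa, from 249 to 188, and H2-DMb1, from 124 to 105, were within it.

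The lower level was seen in 1 of the 2 monocyte subclusters. The larger one (164 and 191 cells) had 3945 and 2214 UPM of class II, a log2 ratio of -0.83 (-0.89 to -0.78). The other, led by the heat-shock and immediate-early genes Hspa1b, Hspa1a, Jun and Fos, had 91 ND and only 20 HFD cells, at 7306 and 7740, a ratio of 0.08 (0.01 to 0.16). With both libraries given the same subcluster weights, the mean of their cell shares, the summed ratio of -0.93 (-0.98 to -0.89) became -0.46. B cell markers were at 72.7 and 32.5, with all 7 found in both libraries, and cDC2 markers at 59.3 and 45.2, with Zbtb46 at 0 in both. Their part was not tested.

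Nonclassical monocyte-like cells (58 and 78 cells, 6 of 6 markers including Ace and Cx3cr1) had higher levels in HFD. H2-Aa went from 248 (196 to 310) to 688 (614 to 768), H2-Ab1 from 152 to 452 and H2-Eb1 from 184 to 312. H2-DMb1 had 12 and 34 UMIs, a log2 ratio of 0.89 (-0.06 to 2.01). These 4 of 6 counted genes were past the limit upward (13.6% of all genes were), with a median log2 ratio of 0.82 against 0.07 over all genes, and Cd74, from 2582 to 3819, lay just inside it at 1.48-fold. The summed log2 ratio was 0.72 (0.62 to 0.83), and 1.36 without the cells with the highest doublet scores. The subcluster with Hspa1b and Hspa1a among its top genes (26 and 13 cells) had nearly equal summed levels, 2689 and 2517. The other (32 and 65 cells) had 3881 and 5939. The median log2 ratio of the counted genes was nevertheless above 0 in both, 1.58 over 3 genes in the first and 0.64 over 6 in the other. Neutrophil markers were at 5296 and 10094 in these cells, and B cell markers at 74.1 with 7 of 7 found and 34.6 with 3 of 7 found. The cDC2 markers were at 54.8 and 47.6, with Cd209a, Mgl2 and Flt3 at 0 in both libraries, and the part of these cells in the ratios was not tested.

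**Figure D5:**
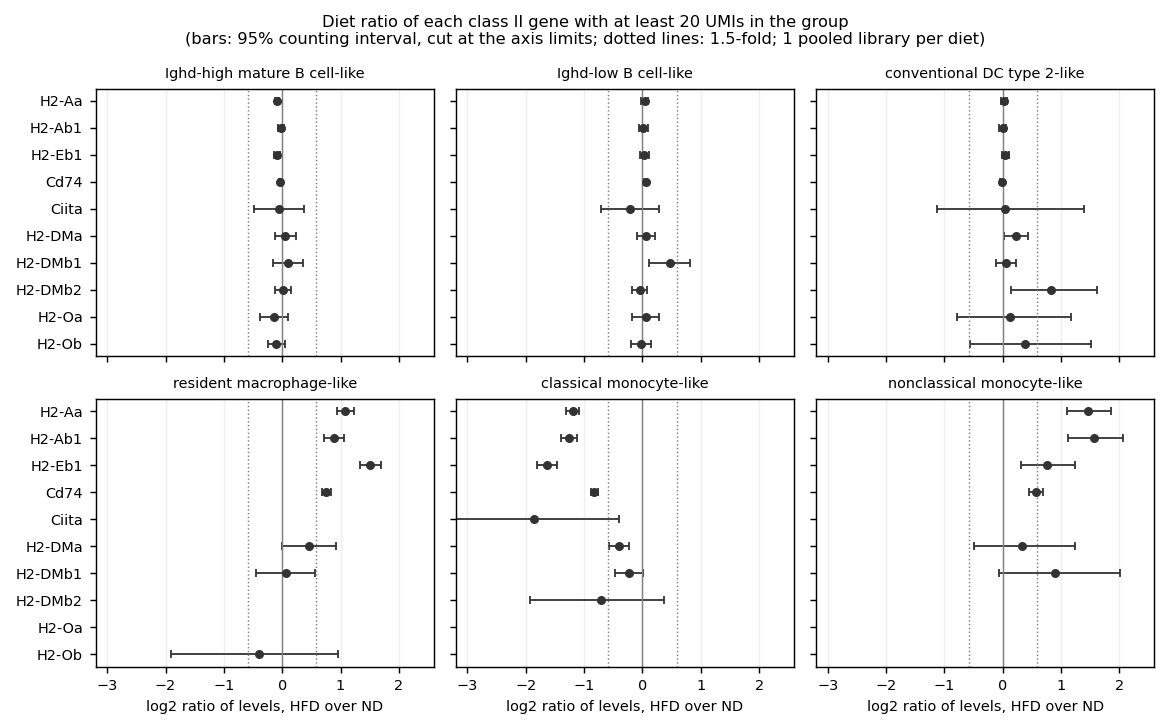
The log2 ratio of HFD over ND (x axis) of each class II gene with at least 20 UMIs (y axis) in 6 cell groups, with 95% counting intervals cut at the axis limits and dotted lines at 1.5-fold. Ratios lie near 0 in both B cell groups and for most genes of the cDC2-like cells, above 0 for the chain genes of resident macrophages (H2-Eb1, 1.51) and nonclassical monocytes (H2-Ab1, 1.57), and below 0 in classical monocytes (H2-Eb1, -1.63).

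Class II RNA also lay in few of the neutrophil-like and endothelial-like cells, with 88.7% and 78.1% in the top 10% of the first and 96.0% and 87.0% in that of the second. Neutrophil-like cells had 368 and 182, and 6 of 9 counted genes were past the limit downward (8.65% of all genes). The 10% of neutrophil-like cells with the most class II had 5110 and 2536, together with B cell markers at 695 and 585, whereas the rest had 53.8 and 51.0, with B cell markers at 42.9 and 47.1. In endothelial-like cells 5 of 5 counted genes were past the limit downward (9.51% of all genes), at summed levels of 1050 and 361, and the 12 and 24 cells with the most class II had B cell markers at 4176 and 1499. The B cell markers were at 924 and 790 in pericyte-like cells, which had 3 of 4 counted genes past it upward (10.8% of all genes), from 105 and 301 class II UMIs. Most of this marker sum was Ebf1, at 631 and 518. The 3 pericyte-like genes past the limit were H2-Aa, H2-Ab1 and H2-Eb1. They had only 7, 5 and 4 UMIs in ND and 46, 26 and 19 in HFD. Cd74, with 76 and 191 UMIs, was within the limit. Hematopoietic progenitor-like cells had 2 of 8 past it upward (4.37% of all genes), H2-Aa from 10.4 to 28.9 and H2-Eb1 from 7.57 to 11.5. Mesenchymal-like cells, the main stromal class of periosteum, had 404 and 442, with 2 of 8 counted genes past the limit upward (8.1% of all genes). These were H2-DMb2, with only 10 and 29 UMIs, and H2-Ob, with 6 and 23. The chain genes and Cd74 were within the limit in this class. B cell markers were at 691 and 644 there, most of it again Ebf1, at 597 and 552. Such sums therefore rest mainly on 1 gene of the list, and the part of B cell RNA in these 2 classes was not tested.

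Lists of genes around the class II pathway were read in the same way, against 18.1% of all genes past the limit in either direction in resident macrophage-like, 14.2% in classical monocyte-like, 22.2% in nonclassical monocyte-like, 23.5% in cDC2-like, 16.1% in Ighd-high B and 10.1% in B cell-like cells. Class I presentation, with B2m, H2-K1, H2-D1, the Tap genes and immunoproteasome genes among its 9 members, had 0 past the limit in B cell-like (9 counted), cDC2-like, resident macrophage-like, classical monocyte-like and nonclassical monocyte-like cells (8 counted in each). In classical monocytes, where class II genes were lower in HFD, H2-D1 was at 2557 and 2686 and B2m at 1536 and 1623. In resident macrophages, where they were higher, H2-D1 was at 2377 and 2547 and B2m at 1614 and 1617.

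Regulators of Ciita expression, a list of 11, showed 3 of 10 counted genes past the limit downward in classical monocytes and none upward. These were Irf4 with 28 and 7 UMIs, Ebf1 with 26 and 7, and Socs1, an inhibitor of cytokine signaling, with 36 and 18. Ebf1 is also among the B cell markers, whose sum was lower in HFD in the same cells, and the part of B cell RNA was not tested. Spi1, encoding the myeloid factor PU.1, was at 418 and 454. In resident macrophages 2 of 9 were past the limit upward, among them Irf4 with 12 and 20 UMIs, and none downward. In nonclassical monocytes, where most counted class II genes were higher, 1 of 7 was past the limit downward and none upward. It was Irf1, with 69 and 42 UMIs and a log2 ratio of -1.28 (-1.88 to -0.72). In cDC2-like cells 1 of 9 was higher, the B cell factor Ebf1 with 0 and 25 UMIs, and 1 lower, Irf1, at 122 and 32.6. In Ighd-high B cells 2 of 11 were lower, Irf4 at 144 and 94.6 and Irf1 at 76.9 and 42.3. In the B cell-like class it was 1 of 11, Prdm1, a repressor of Ciita in plasma cells, with 58 and 32 UMIs. The libraries also differed in the heat-shock gene Hspa1b within groups. It was at 804 and 322 in cDC2-like cells, and the other way in resident macrophages, at 413 and 562. In the larger Ighd-high B subcluster it was at 51.2 and 12.1, and in the smaller at 12833 and 10783. The part of this difference in the regulator ratios was not tested.

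Of the class II promoter binding factors, 0 of 7 were past the limit in B cell-like cells. In classical monocytes 1 of 6 was lower, Nfya, a subunit of the Y box factor NF-Y, at 29.3 and 19.4. In resident macrophages 1 of 5 was lower, again Nfya at 33.1 and 21.0. In nonclassical monocytes 1 of 3 was lower, Rfxap with 14 and 12 UMIs and a log2 ratio of -0.79 (-2.04 to 0.42). In cDC2-like cells 2 of 5 were lower, Nfyb at 33.1 and 13.3 and Creb1 at 63.6 and 37.4, beside 23.5% of all genes past the limit in either direction. Rfx5, part of the X box binding complex, had 6 and 4 UMIs in classical monocytes and 1 and 3 in cDC2-like cells, too few to count.

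The lysosomal processing list holds the proteases and the reductase Ifi30 that prepare peptides and degrade the invariant chain. None of its 6 genes was past the limit in B cell-like or classical monocyte-like cells, 1 was lower in resident macrophages, the protease Ctsd at 1754 and 1062, and 2 were lower in cDC2-like cells, Ctsb at 499 and 295 and Ctsd at 115 and 67.6. Ctss, the protease that trims the invariant chain in antigen-presenting cells, was within the limit in each, at 1061 and 1275 in cDC2-like and 389 and 478 in Ighd-high B cells.

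Among costimulation and checkpoint ligands, 2 of 5 counted genes were lower in Ighd-high B cells, where 16.1% of all genes were past the limit in either direction. They were Cd274, encoding PD-L1, at 55.3 and 25.1, and Pdcd1lg2, encoding PD-L2, at 39.4 and 19.8, while Cd86 was at 89.0 and 94.6. A subcluster led by the heat-shock genes Hspa1b and Hspa1a made up 107 of the 388 ND and 48 of the 359 HFD cells of this group, and its part in these ratios was not tested. None was past the limit in cDC2-like (4 counted), classical monocyte-like (5) or resident macrophage-like cells (4). March1, a ligase that removes class II from the surface, was at 55.9 and 53.6 in Ighd-high B cells and 50.8 and 37.2 in classical monocytes, within the limit in both. It was lower in HFD in Ighd-low B cells (11.9% of all genes past the limit in either direction), at 41.6 and 24.3, a log2 ratio of -0.77 (-1.23 to -0.34). In nonclassical monocytes it was lower as well, with 24 and 21 UMIs, levels of 77.4 and 45.4 and a log2 ratio of -0.76 (-1.69 to 0.14). Of the other class II region genes only H2-Eb2 was counted, at 82.0 and 77.4 in Ighd-high B cells. In Ighd-low B cells it was past the limit downward, with 33 and 17 UMIs and a log2 ratio of -0.69 (-1.65 to 0.18). The coreceptors Cd4 and Lag3 had too few UMIs to count in these groups.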

How the data were processed

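Periosteal cells of ND and HFD mice were profiled by droplet-based 3′ scRNA-Seq, and for each diet the authors deposited a single matrix of untransformed UMI counts with the cells of all mice pooled. The submitters' processing notes name Cell Ranger 6.0.1 and mm10. The annotation version was not given in the sources used. The matrices held 6314 (ND) and 6636 (HFD) barcodes with 48558889 and 49940976 UMIs, and 15 barcodes occurred in both.

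Barcodes were retained if they had over 500 and less than 8000 genes and if mitochondrial genes took less than 20% of their UMIs. Counts were normalised with SCTransform, regressing cell cycle scores, and clustered with 30 principal components at a resolution of 0.5, leaving the class II genes out (R 4.3.3, Seurat 5.3.0, sctransform 0.4.2). A cluster was named for the class with the highest marker score if at least 3 markers were detected at 2-fold or more over the median cluster, with 20 UMIs or more and 10 UPM added, and if its 10 leading genes did not go against the name. The Ighd limit of 300 UPM, which divided the subclusters named mature B cell, was set after the clusters had been seen. Doublets were kept, because the automatic Scrublet call (scanpy 1.11.5) marked only 0.149% and 0.370% of cells and so had not worked. An alternative removed the cells with the top 5% of scores.

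Levels are UMIs per 1000000 UMIs of a group (UPM) with exact Poisson intervals. Shares of cells are also given at 1000 UMIs per cell, where 55 ND and 51 HFD cells were too shallow. Diet ratios are log2 of HFD over ND with 0.5 added to each count and an exact conditional interval. The interval step was tested on simulated Poisson counts, which hold no added spread between cells or mice, so only the computation was checked. The similarity of patterns used genes with at least 200 UMIs. Analyses ran in Python 3.11.15 with numpy 2.4.6, scipy 1.17.1, pandas 2.3.3, matplotlib 3.10.9 and Biopython 1.88.

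Genes named in the text are the 10 class II genes, genes of the pathway lists (other class II region genes, promoter binding factors, lysosomal processing, surface turnover, costimulation and checkpoint ligands, coreceptors, regulators of Ciita and class I presentation), the 10 genes with the most similar pattern, and the markers. Pathway genes with values were chosen among the list members after the values were seen. The members, lists and markers were chosen with earlier results of these data known. The alternatives tried were other filters, clustering settings, weights, limits and left-out cells. Some single genes of the marker and regulator lists are counted in their lists but not reported here by name.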

Additional observations from a re-analysis of the deposited data

Results flagged for a closer look

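The summed class II genes differed between the diet libraries in opposite directions in neighbouring phagocyte groups. On the log2 scale, HFD over ND stood at 0.89 in resident macrophage-like cells, -0.93 in classical monocyte-like cells and 0.72 in nonclassical monocyte-like cells. These values stand out because cell groups compared under the same contrast moved apart. With 1 pooled library per diet the difference between the groups was not tested.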

How the results depend on the processing

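No paired analysis was possible because the matrices pool all mice of a diet, so that no replicate number belongs to a column, and no replicate could be left out. Values below are log2 ratios of HFD over ND of the summed class II genes unless they are called levels (UPM, ND and HFD). The direction held under every alternative run in resident macrophages (0.76 to 1.73, 5 alternatives), classical monocytes (-1.24 to -0.46, 7) and nonclassical monocytes (0.52 to 1.36, 7). It also held in the dendritic cell-like class (0.017 to 0.35) and the B cell-like class (-0.19 to -0.034). It changed with the setting over all cells, in cDC2-like cells, in Ighd-high B cells and in the macrophage/monocyte-like class. The cause was not tested except where given. Some alternatives could hardly change a sign. No called doublet lay in the resident macrophage or nonclassical monocyte subclusters, so removing called doublets left their data as they were. Centring subtracted only 0.04, 0.05 and 0.07 in resident macrophages, classical and nonclassical monocytes. Leaving out 5 cells per diet kept others of the few resident macrophages that held most class II UMIs. Other filters and other clusterings were not among the alternatives run for the groups from subclustering. Whether the directions in those groups depend on how the groups were drawn was therefore not tested.

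Cells thinned to 1000 UMIs gave -0.10 over all cells, -0.062 in B cell-like, 0.27 in dendritic cell-like, 0.22 in cDC2-like, 0.95 in resident macrophage-like, -0.80 in classical monocyte-like, 0.53 in nonclassical monocyte-like and 0.068 in Ighd-high B cells. Levels were then 23192 and 22216 in B cell-like, 4817 and 4874 in macrophage/monocyte-like and 31829 and 38485 in dendritic cell-like cells. Genes past the limit numbered 0 in macrophage/monocyte-like, 1 in dendritic cell-like and 2 in nonclassical monocyte-like cells. Centring on the median of all genes gave -0.027 over all cells, -0.17 in B cell-like, -0.0057 in macrophage/monocyte-like, -0.029 in cDC2-like and -0.98 in classical monocyte-like cells. The same class weights in both libraries gave -0.0078 over all cells. The same subcluster weights in both libraries gave -0.034 in B cell-like, -0.00093 in macrophage/monocyte-like, 0.28 in dendritic cell-like, -0.46 in classical monocyte-like, 0.52 in nonclassical monocyte-like and -0.094 in Ighd-high B cells.

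With at least 200 detected genes the ratios were -0.10 in B cell-like, -0.069 in macrophage/monocyte-like and 0.28 in dendritic cell-like cells. The levels were 17518 and 16340 in B cell-like and 33315 and 40384 in dendritic cell-like cells, and 4558 in macrophage/monocyte-like cells of ND. With the class II genes in the clustering, the ratio in macrophage/monocyte-like cells was 0.60 at levels of 9677 and 14668, while the dendritic cell-like class had 0.017 at 2758 and 2790. Its level was thus far lower than in the main clustering, and which class the cDC2-like cells had joined was not traced cell by cell. The level of B cell-like cells in ND was then 18553. A resolution of 0.25 gave no dendritic cell-like class, a ratio of 0.49 with levels of 7530 and 10576 in macrophage/monocyte-like cells, and levels of 17605 and 16080 in B cell-like cells.

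A minimum of 100 UMIs left 0 genes past the limit in macrophage/monocyte-like cells. A limit of 2-fold left 0 there, 0 in cDC2-like, 2 in resident macrophage-like and 2 in nonclassical monocyte-like cells. A minimum of 1 UMI gave 8 in nonclassical monocyte-like cells.

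The following alternatives were chosen after seeing the data. Without the cells of the top 5% of doublet scores the ratio was -0.0075 over all cells, -0.12 in B cell-like, 0.10 in macrophage/monocyte-like, 0.21 in dendritic cell-like, 0.066 in cDC2-like, 1.73 in resident macrophage-like, -1.05 in classical monocyte-like, 1.36 in nonclassical monocyte-like and 0.065 in Ighd-high B cells. Levels were 18730 and 17245 in B cell-like, 3801 and 4083 in macrophage/monocyte-like and 35876 and 41380 in dendritic cell-like cells. Without the 5 cells of each diet with the most class II UMIs it was -0.029 over all cells, -0.21 in macrophage/monocyte-like, 0.35 in dendritic cell-like, -0.086 in cDC2-like, 0.76 in resident macrophage-like, -1.24 in classical monocyte-like, 0.87 in nonclassical monocyte-like and 0.0030 in Ighd-high B cells. A further setting left out B cell and phagocyte subclusters with Hspa1b, Hspa1a, Fos or Jun anywhere among their leading genes. These included an Ighd-low B cell subcluster of 436 ND and 258 HFD cells that was led by Il4i1 and Ms4a1. The ratio was then 0.18 over all cells, -0.19 in B cell-like, 0.22 in macrophage/monocyte-like, -0.83 in classical monocyte-like, 0.61 in nonclassical monocyte-like and -0.15 in Ighd-high B cells. Ciita, with 263 and 212 UMIs in all, could not be compared between diets in most groups at this depth.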

Other observations

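NK cell-like cells had summed class II levels of 833 and 577 UPM in ND and HFD and T cell-like cells of 248 and 258 UPM, beside B cell markers at 272 and 211 UPM and at 132 and 170 UPM. The part of the B cell markers in these levels was not tested.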
